A study of Mus musculus with 7 samples.

Results

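The genes described here encode subunits of the voltage-gated channels that carry sodium, calcium and pacemaker current across the membrane of heart muscle cells. They are *Scn4a* and *Scn4b* for sodium channels, *Cacna1c*, *Cacna1g*, *Cacna1h* and *Cacnb2* for calcium channels, and *Hcn2* and *Hcn4* for channels opened by hyperpolarisation and cyclic nucleotides. These 8 genes were chosen by name, as channel subunits, from the 20927 genes of the count table, and all 8 were measured.

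As background, a heartbeat at the level of the ventricular myocyte begins with a fast inward sodium current, which depolarises the membrane. L-type calcium channels then open in the transverse tubules, and the calcium they let in releases more calcium from the sarcoplasmic reticulum and so starts contraction. T-type calcium channels and HCN channels are known mainly from the sinoatrial node and the conduction system, where they help to set the heart rate, and from the fetal ventricle. Each of these pores is an alpha subunit or a tetramer, and smaller subunits change how it opens and how much of it reaches the membrane.

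The tissue was the left ventricle of mice carrying a missense variant of titin, the giant protein that spans the sarcomere from Z-disc to M-band. The A178D mice were homozygous for the variant, the WT mice were littermates without it, and both were of the C57BL/6J strain. The variant was introduced by CRISPR-Cas9 into C57BL/6N embryonic stem cells, and mice derived from selected clones were then crossed back to C57BL/6J, so that remains of the stem cell genome can accompany the allele. The labels give neither age nor sex of the hearts, no heterozygous heart was included, and no further treatment is named.

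RNA was sequenced from 3 WT hearts, numbered 1, 3 and 4, and 4 A178D hearts, numbered 1 to 4. The libraries held 51797208, 54245530 and 41102868 counts in WT and 40623300, 52345529, 42174448 and 33080675 counts in A178D replicates 1 to 4. Markers of ventricular myocytes dominated every library. Their 11 genes summed to between 126200 and 134200 CPM, where CPM are counts per 1e6 counts after scaling of the libraries by TMM. Of the atrial markers, *Bmp10* was at 0 in every library, and *Myl7* and *Sln* stayed below the minimum of 10 counts in 3 libraries that a gene needed to be tested. The other 7 of 10 atrial markers passed it, among them *Nppa* at 109.2 to 587.8 CPM.

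None of the 8 channel genes was called different between A178D and WT at a Benjamini-Hochberg adjusted p under 0.05 in edgeR's quasi-likelihood test, against 2.35% of all 13894 genes tested, 1.04% higher and 1.31% lower. DESeq2's Wald test called 1 of them, *Cacna1c*, against 5.08% of all genes it tested, and limma-voom called 0. Without adjustment, 4 of the 8 had a p under 0.05 in edgeR, with *Scn4b* and *Cacna1h* higher in A178D and *Cacna1c* and *Cacnb2* lower, against 16.7% of all tested genes, of which 7.93% were higher and 8.81% lower. The WT and A178D hearts did not overlap in 2 of the 8, *Cacna1c* and *Cacnb2*, both lower in A178D, against 16.1% of all tested genes, or 7.61% with A178D higher and 8.52% with A178D lower. The median log2 fold change of the 8, A178D over WT, was 0.13, and that of all tested genes was 0.00. Counts behind single values of these genes ranged from 246 to 21472, and the standard errors of their log2 fold changes from 0.08 to 0.19. Of all counts from 1 to 20, between 17.6 and 20.3% were odd in each library, so 1 count may not stand for 1 fragment, and the 10 counts of the filter may be fewer fragments.

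**Figure D1:**
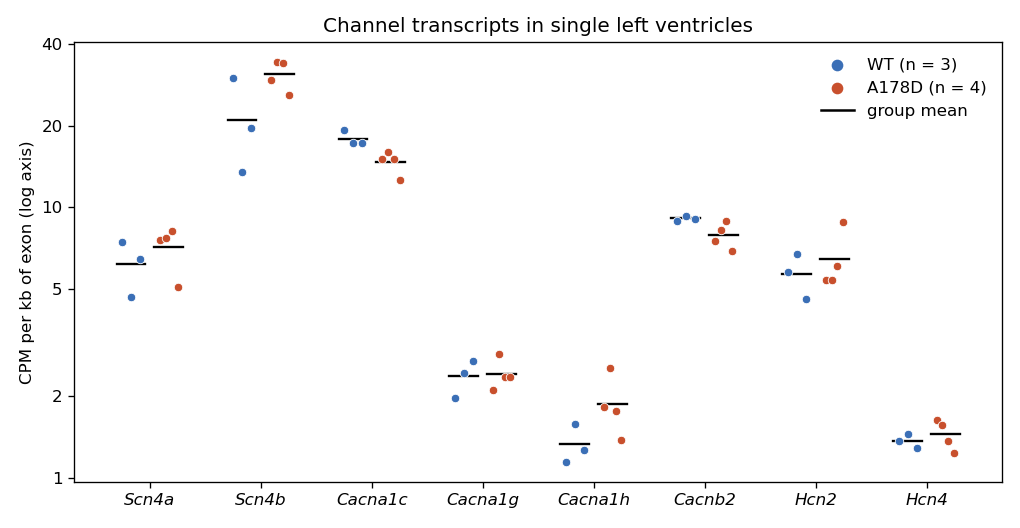
Level of each of 8 channel genes in single left ventricles, in CPM per kb of exon on a logarithmic axis, with 3 WT hearts in blue, 4 A178D hearts in orange and the group means as bars. *Cacna1c* and *Cacnb2* are the genes whose A178D hearts all lie below the WT hearts, while WT and A178D overlap for the other genes.

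Levels of different genes were compared per length, as CPM per kb of merged exons. In WT hearts the highest mean was that of *Scn4b* at 21.03 ± 8.33 CPM per kb (SD, n = 3), followed by *Cacna1c* at 17.9 ± 1.18 and *Cacnb2* at 9.09 ± 0.20. *Scn4b* and *Cacna1c* overlapped between WT hearts, whereas *Cacnb2* lay below *Cacna1c* in all 3. *Scn4a* at 6.19 ± 1.43 and *Hcn2* at 5.68 ± 1.06 CPM per kb formed a second, overlapping pair. *Cacna1g* followed at 2.37 ± 0.37, and *Hcn4* at 1.37 ± 0.08 and *Cacna1h* at 1.33 ± 0.22 overlapped at the lower end.

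In A178D hearts the order was the same down to *Cacna1g*, with *Scn4b* at 31.0 ± 3.95 CPM per kb (SD, n = 4) and *Cacna1c* at 14.7 ± 1.43, which did not overlap. *Cacna1h* stood at 1.88 ± 0.49 and *Hcn4* at 1.45 ± 0.18, and *Cacna1h* was the higher of this pair in all 4 A178D hearts and in 1 of 3 WT hearts. The order depended on the length used. Divided by the longest annotated transcript, *Cacna1c* led in WT hearts at 28.8 ± 1.91 CPM per kb, ahead of *Cacnb2* at 23.9 ± 0.53 and *Scn4b* at 21.03 ± 8.33, and *Scn4b* led in A178D hearts at 31.0 ± 3.95, ahead of *Cacna1c* at 23.6 ± 2.29. With this length *Cacna1h*, at 1.58 ± 0.26 CPM per kb, came before *Hcn4*, at 1.37 ± 0.08, in WT, and was the higher in 2 of 3 WT hearts.

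*Scn4b* (ENSMUSG00000046480, chromosome 9 from 45138395 to 45154152 on GRCm38) encodes a beta subunit, a membrane protein with an immunoglobulin-like domain that binds the sodium channel pore and changes its gating. Its level was 149.3, 67.2 and 97.7 CPM in WT replicates 1, 3 and 4, and 147.4, 170.7, 169.4 and 129.5 CPM in A178D replicates 1 to 4. All 4 A178D hearts were above the WT mean, but WT replicate 1 was above A178D replicates 1 and 4, so the groups overlapped. The means were 104.8 ± 41.5 CPM (SD, n = 3) and 154.3 ± 19.7 CPM (SD, n = 4), a log2 fold change of 0.56 (standard error 0.19) whose adjusted p in edgeR was 0.162.

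This comparison depended on single WT hearts. Without WT replicate 1 the log2 fold change of *Scn4b* was 0.91 and its adjusted p in edgeR 0.00334, and without WT replicate 3 they were 0.32 and 0.416. WT replicate 1 also held more of the fetal gene programme than the other WT hearts, with a sum over its 8 genes of 3884 CPM against 2402 CPM in WT replicate 3 and 2345 CPM in WT replicate 4. The part of that difference in the *Scn4b* values was not tested.

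*Scn4a* (ENSMUSG00000001027, chromosome 11 from 106318592 to 106353288) encodes the alpha subunit best known as the sodium channel pore of skeletal muscle. Its level was 52.5, 32.7 and 45.5 CPM in WT replicates 1, 3 and 4, and 53.1, 54.0, 57.4 and 35.6 CPM in A178D replicates 1 to 4. The 3 highest hearts were A178D replicates 1 to 3, and A178D replicate 4 lay among the lower WT hearts. The log2 fold change came to 0.20 (standard error 0.16, adjusted p = 0.570 in edgeR), and it ranged from 0.03 without WT replicate 3 to 0.36 without WT replicate 1.

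Because *Scn4a* is a gene of skeletal muscle, markers of that tissue were read beside it. Of the 16 markers, 11 passed the filter and 4 were called higher in A178D, against 1.04% of all tested genes. They were *Acta1*, *Casq1*, *Neb* and *Ryr1*, and the median log2 fold change of the 11 was 0.86. *Mylpf*, *Actn3*, *Tnni2* and *Cacna1s* went the other way, at -0.605, -0.18, -0.14 and -0.08, and were not called. The log2 fold changes of *Casq1*, *Neb* and *Ryr1* were 1.14, 1.21 and 1.257, and in 7 fits with 1 library left out these genes were called 7, 4 and 2 times. *Ryr1* was not called with replicate number as a block (adjusted p = 0.0585 in edgeR). All markers of the list summed to 274.9, 156.0 and 153.5 CPM in WT replicates 1, 3 and 4 and 919.3, 616.2, 809.4 and 772.2 CPM in A178D replicates 1 to 4. Most of the difference was *Acta1*, since the other 15 summed to 92.4, 84.0 and 84.2 CPM in WT and 108.3, 120.7, 103.5 and 100.5 CPM in A178D. *Acta1*, which heart muscle also expresses, was the most abundant of them per length, at 70.3 ± 42.1 CPM per kb in WT and 436.9 ± 85.4 in A178D. The defining fast myosins *Myh1*, *Myh2* and *Myh4* did not pass the filter, with at most 0.29 CPM in any library. The part of this list in the *Scn4a* values was not tested.

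The sodium channel family has 14 genes in the list used, of which 10 were tested and 0 called by edgeR, DESeq2 or limma-voom. In edgeR 3 of the 10 had an unadjusted p under 0.05, against 16.7% of all tested genes. Besides *Scn4b*, the genes with an unadjusted p under 0.05 were *Scn3a*, an alpha subunit known from the brain, and *Scn7a*, which encodes a sodium-sensing relative of the channels. *Scn3a* had 2.13, 2.77 and 3.35 CPM in WT replicates 1, 3 and 4 and 1.98, 1.65, 2.44 and 0.93 CPM in A178D replicates 1 to 4. Its log2 fold change came to -0.64 (standard error 0.28, adjusted p = 0.271 in edgeR), and the groups overlapped. *Scn7a* had 33.7, 39.7 and 35.7 CPM in WT and 31.5, 31.2, 34.6 and 26.7 CPM in A178D, with a log2 fold change of -0.23 (standard error 0.10) and an adjusted p of 0.250. With offsets for length and GC content *Scn7a* was at -0.13, with an unadjusted p of 0.146 in edgeR, and *Scn3a* at -0.54, with 0.0512. The lowest log2 fold change among the other tested genes was -0.44 (*Scn2a*), and the median of the family was -0.24. *Scn3a*, *Scn2a* and *Scn7a* lie on chromosome 2 from 65457118, 65620771 and 66673425, and *Ttn* lies on it from 76703980. The part of stem cell genome accompanying the allele in these values was not tested. The genes *Scn1a*, *Scn8a*, *Scn9a* and *Scn11a* were not tested, with at most 10 counts in a library.

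*Cacna1c* (ENSMUSG00000051331, chromosome 6 from 118587240 to 119196418) encodes the pore of the main cardiac L-type calcium channel. Its level was 408.5, 364.5 and 365.7 CPM in WT replicates 1, 3 and 4, and 318.7, 337.7, 318.4 and 267.3 CPM in A178D replicates 1 to 4. Every A178D heart was below every WT heart, with WT replicate 1 the highest and A178D replicate 4 the lowest of all. The means were 379.6 ± 25.1 CPM (SD, n = 3) and 310.5 ± 30.2 CPM (SD, n = 4), and the log2 fold change was -0.29 (standard error 0.08). The adjusted p was 0.0921 in edgeR and 0.0288 in DESeq2.

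The libraries at the ends of this range also differed in how counts depended on transcript length. Over genes averaging 50 counts or more, each doubling of length went with a log2 difference of 0.087 in WT replicate 1 and of -0.124 in A178D replicate 4, and of -0.028 to 0.023 in the other libraries. *Cacna1c* is long, with 21.19 kb of merged exons. With offsets that removed each library's trend with length and GC content, its log2 fold change was -0.16 and its adjusted p 0.0766 in edgeR. Without A178D replicate 4 the log2 fold change was -0.22, and without WT replicate 1 it was -0.23.

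*Cacna1c* is also a gene of smooth muscle, in vessels as in other organs. Of 13 markers of smooth muscle and pericytes, all tested, 6 were called lower in A178D and 0 higher by edgeR (9 lower by DESeq2). Over all tested genes edgeR called 1.31% lower and 1.04% higher. The markers had a median log2 fold change of -0.38. They summed to 1777, 1797 and 1709 CPM in WT replicates 1, 3 and 4 and to 1345, 1477, 1556 and 1310 CPM in A178D replicates 1 to 4, with every A178D heart below every WT heart, and no marker was at 0. The most abundant of them per length was *Acta2*, the smooth muscle actin, in WT, and *Abcc9* in A178D, at 64.7 ± 9.73 CPM per kb against 57.6 ± 5.95 for *Acta2*. *Acta2* fell from 190.7 ± 19.3 to 126.4 ± 13.1 CPM (log2 fold change -0.59, adjusted p = 0.00587 in edgeR). *Tagln*, *Myh11*, *Mylk*, *Cnn1* and *Lmod1* were the other called genes, with log2 fold changes from -0.82 (*Cnn1*) to -0.49 (*Mylk*). With single libraries left out, *Acta2* and *Tagln* were called in all 7 fits, *Myh11* in 5, *Mylk* in 2 and *Cnn1* and *Lmod1* in 1 each. *Cnn1* was not called with replicate number as a block (adjusted p = 0.0617 in edgeR). In these bulk samples, fewer cells of a type and less RNA per cell cannot be told apart, and the part of smooth muscle cells in the *Cacna1c* values was not tested.

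*Cacnb2* (ENSMUSG00000057914, chromosome 2 from 14603088 to 14987908) encodes the main cardiac beta subunit of the L-type channel, an intracellular protein that brings the pore to the membrane. Its level was 118.1, 123.2 and 119.3 CPM in WT replicates 1, 3 and 4, and 98.8, 109.0, 117.5 and 90.9 CPM in A178D replicates 1 to 4. All A178D hearts lay below all WT hearts, but A178D replicate 3 came close to the lowest of them. The means were 120.2 ± 2.65 CPM (SD, n = 3) and 104.1 ± 11.6 CPM (SD, n = 4), with a log2 fold change of -0.21 (standard error 0.08) and an adjusted p of 0.234 in edgeR. With length and GC offsets (-0.14) it did not keep its unadjusted p under 0.05 in edgeR, nor in 4 of 7 fits with 1 library left out. The gene overlaps 3 annotated genes on the opposite strand, by up to 618 bases of exon, and since the counting program is not given in the sources used here, reads from them cannot be told apart from its own.

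*Cacna1h* (ENSMUSG00000024112, chromosome 17 from 25374285 to 25433783) encodes a T-type pore that is expressed in the fetal ventricle. Its level was 11.2, 15.4 and 12.4 CPM in WT replicates 1, 3 and 4, and 17.9, 24.9, 17.2 and 13.5 CPM in A178D replicates 1 to 4. A178D replicates 1 to 3 were above all WT hearts, and A178D replicate 4 lay within the WT range. The means were 13.0 ± 2.17 CPM (SD, n = 3) and 18.4 ± 4.75 CPM (SD, n = 4), with a log2 fold change of 0.50 (standard error 0.17) and an adjusted p of 0.163 in edgeR. Without A178D replicate 4 the log2 fold change was 0.62 and the adjusted p 0.0483, and without A178D replicate 2 they were 0.32 and 0.313. Its exons share 158 bases with *Tpsg1* on the opposite strand.

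*Cacna1g* (ENSMUSG00000020866, chromosome 11 from 94408391 to 94474198) encodes the T-type pore known from the adult sinoatrial node. Its level was 19.96, 24.7 and 27.4 CPM in WT replicates 1, 3 and 4, and 21.4, 29.2, 24.0 and 23.8 CPM in A178D replicates 1 to 4. The hearts of both groups were interspersed, and the log2 fold change came to 0.04 (standard error 0.12, adjusted p = 0.917 in edgeR), so that 2 standard errors on either side reach from -0.21 to 0.28. Its sign depended on single libraries, with -0.08 without WT replicate 1 and -0.05 without A178D replicate 2.

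Of the 26 genes of the calcium channel family, 17 were tested. An unadjusted p under 0.05 in edgeR was found for 4 of the 17, against 16.7% of all tested genes. Of the family, 0 were called by edgeR, 1 by DESeq2 (*Cacna1c*) and 0 by limma-voom. The most abundant was *Cacna2d1*, the alpha2delta subunit of the cardiac L-type channel, at 21.9 ± 1.95 CPM per kb in WT and 19.4 ± 2.66 in A178D. The gene outside the 8 with an unadjusted p under 0.05 was *Cacng6*, a gamma subunit that occurs in striated muscle. It had 2.17, 1.94 and 2.56 CPM in WT replicates 1, 3 and 4 and 0.92, 1.44, 1.03 and 1.54 CPM in A178D replicates 1 to 4. Every A178D heart was below every WT heart, with a log2 fold change of -0.85 (standard error 0.25) and an adjusted p of 0.102 in edgeR. Its counts were identical in every library to those of an entry without a gene name, and the 2 entries were counted as 1. The other 12 tested genes had log2 fold changes from -0.36 (*Cacna2d3*) to 0.38 (*Cacna1b*), and the median of the family was 0.01. The remaining 9 genes had at most 16 counts in any library and were not tested.

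*Hcn2* (ENSMUSG00000020331, chromosome 10 from 79716634 to 79736108) encodes the HCN channel that predominates in ventricular muscle. Its level was 18.3, 21.4 and 14.7 CPM in WT replicates 1, 3 and 4, and 17.2, 17.2, 19.4 and 28.2 CPM in A178D replicates 1 to 4. A178D replicate 4 was the highest of all hearts, and the other A178D hearts lay within the WT range. The log2 fold change came to 0.17 (standard error 0.17, adjusted p = 0.658 in edgeR), and it was -0.02 without A178D replicate 4.

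*Hcn4* (ENSMUSG00000032338, chromosome 9 from 58823412 to 58863175) encodes the main pacemaker channel of the sinoatrial node. Its level was 8.39, 8.86 and 7.92 CPM in WT replicates 1, 3 and 4, and 9.99, 9.56, 8.36 and 7.60 CPM in A178D replicates 1 to 4. The A178D hearts spread to both sides of the WT hearts. The log2 fold change came to 0.08 (standard error 0.12, adjusted p = 0.787 in edgeR), and 2 standard errors on either side reach from -0.16 to 0.33.

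*Hcn3*, which is expressed mainly outside the ventricle, had a log2 fold change of -0.56 with a standard error of 0.76 and was not called by edgeR. Since *Hcn4* and *Cacna1g* are genes of pacemaker tissue, markers of nodal and conduction cells were read beside them. Of 14 markers, 12 were tested and 1 was called by edgeR, *Irx3*, which was higher in A178D. DESeq2 also called *Bmp4*, which was lower, and the median log2 fold change was -0.10. Without adjustment 4 had a p under 0.05 in edgeR, 2 higher and 2 lower, against 16.7% of all tested genes. The highest log2 fold change was that of *Cntn2*, at 1.36 (standard error 0.355, adjusted p = 0.065 in edgeR), with overlap between the groups. The sum of the markers was 220.2, 200.6 and 183.7 CPM in WT replicates 1, 3 and 4 and 209.6, 228.0, 219.6 and 226.1 CPM in A178D replicates 1 to 4. The most abundant of them per length was *Smoc2* in WT, at 15.4 ± 3.07 CPM per kb against 13.3 ± 0.63 for *Irx3*, and *Irx3*, which ventricular muscle also expresses, in A178D, at 21.96 ± 2.46 against 14.9 ± 0.51. The nodal markers *Isl1* and *Vsnl1* were at 0 in every library. The part of these markers in the *Hcn4*, *Cacna1g* and *Cacna1h* values was not tested.

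**Figure D2:**
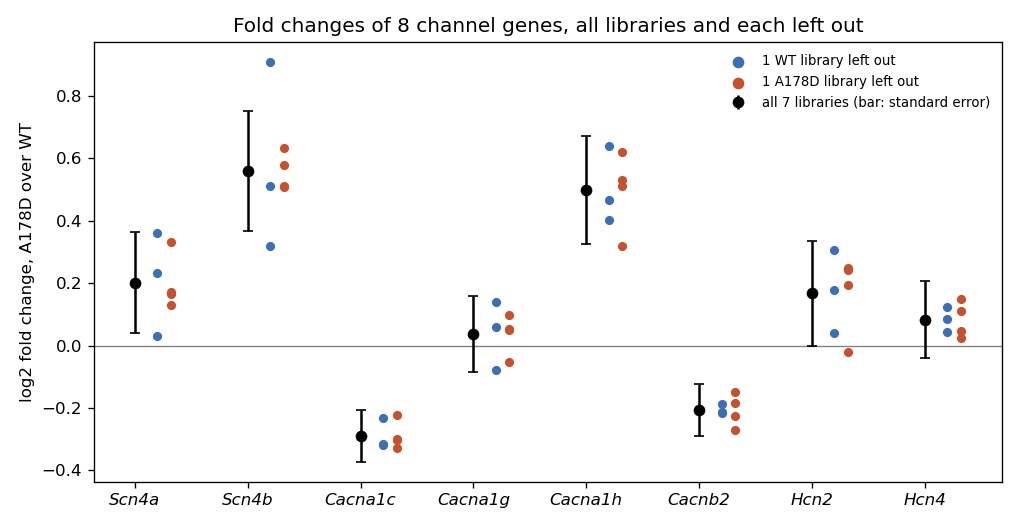
Log2 fold changes of the 8 channel genes, A178D over WT, from edgeR with all 7 libraries (black, bars are standard errors) and with 1 WT (blue) or 1 A178D (orange) library left out. *Cacna1c* and *Cacnb2* stay below 0 and *Scn4a*, *Scn4b*, *Cacna1h* and *Hcn4* above 0 in all of these fits, while *Cacna1g* and *Hcn2* change sign.

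Calcium channel composition was then compared as shares within each heart, from counts divided by exon length, with an exact two-sided permutation test over the 35 ways to choose 3 of 7 hearts. The smallest p this design can give is 0.0286, and p-values were adjusted over 6 shares of channel families, of which those of calcium channels are given. The T-type genes *Cacna1g* and *Cacna1h* together made up 13.8, 18.8 and 18.6% of the 4 pore genes *Cacna1c*, *Cacna1d*, *Cacna1g* and *Cacna1h* in WT replicates 1, 3 and 4. In A178D replicates 1 to 4 they made up 20.6, 25.0, 21.3 and 22.6%, all above the WT hearts. The difference was 5.35 percentage points, with an exact p of 0.0286, the smallest possible, and an adjusted p of 0.171. It did not pass, but 1 share alone at the smallest possible p cannot pass after adjustment over 6 shares, so this decides nothing. The difference was 3.13 points without division by length and 4.41 points with the longest transcript. With 1 library left out it ranged from 3.71 points without WT replicate 1 to 6.21 points without WT replicate 3. The shares were not corrected for each library's trend with length. *Cacna1h* alone made up 36.9, 39.3 and 32.0% of the T-type pair in WT and 46.5, 46.9, 42.7 and 37.0% in A178D, with A178D replicate 4 inside the WT range (difference 7.21 points, exact p = 0.0857, adjusted p = 0.257).

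*Cacnb2* made up 74.1 ± 1.63% of *Cacnb1* to *Cacnb4* in WT (SD, n = 3) and 70.3 ± 3.34% in A178D (SD, n = 4), with overlap between the groups, an exact p of 0.171 and an adjusted p of 0.343. This difference was -3.82 points, and -2.22 points without division by length.

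**Figure D3:**
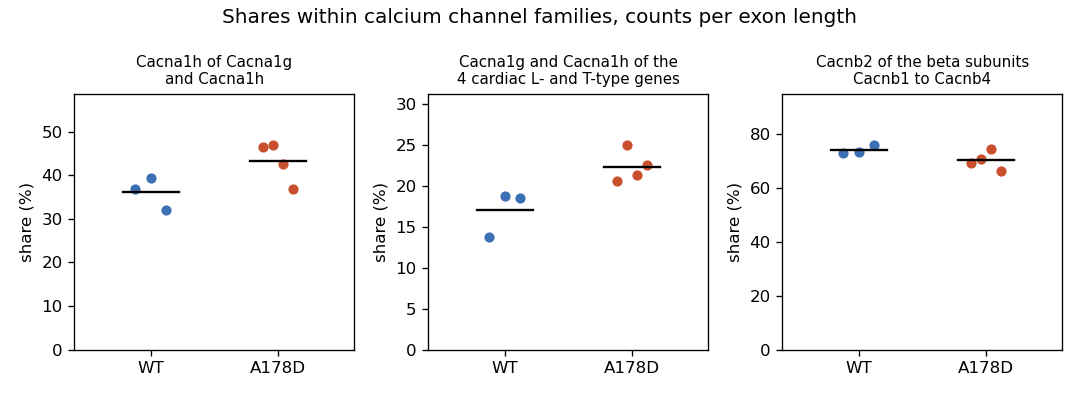
Shares within calcium channel families in each heart, in percent of counts per exon length on axes that start at 0, with 3 WT hearts in blue, 4 A178D hearts in orange and group means as bars. The share of *Cacna1g* and *Cacna1h* among 4 calcium channel pore genes is the one in which the A178D hearts, at 20.6 to 25.0%, lie above all WT hearts, at 13.8 to 18.8%.

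Proteins that bind or modify these channels were mostly not called. Of 12 sodium channel partners, all tested, 0 were called by edgeR, DESeq2 or limma-voom, and 3 had an unadjusted p under 0.05 in edgeR. Of all tested genes 16.7% had such a p and 2.35% were called by edgeR. The median log2 fold change of these partners was 0.04. The most abundant per length was *Cav3*, the muscle caveolin, at 54.8 ± 1.37 CPM per kb in WT and 62.2 ± 5.002 in A178D, which was also the most abundant of the HCN channel partners. Of those 4, 3 were tested, 0 were called by any of the 3 tools, 1 (*Cav3*) had an unadjusted p under 0.05 in edgeR, and the median was 0.18, or -0.028 without A178D replicate 4. Of 18 calcium channel partners, 16 were tested and 1 was called, with a median of -0.04. It was *Ahnak*, a giant scaffold protein that binds the beta subunit of the L-type channel, which was 690.3 ± 63.4 CPM (SD, n = 3) in WT and 513.9 ± 60.7 CPM (SD, n = 4) in A178D. Its log2 fold change came to -0.43 (standard error 0.09, adjusted p = 0.0298 in edgeR), and all A178D hearts were below all WT hearts. *Ahnak* was no longer called by edgeR with the length and GC offsets (log2 fold change -0.29, adjusted p = 0.0962) and in 4 of the 7 fits without 1 library. These 4 fits left out WT replicate 3 (-0.40, 0.159), WT replicate 4 (-0.38, 0.137), A178D replicate 1 (-0.40, 0.107) or A178D replicate 2 (-0.42, 0.0660), with the log2 fold change and adjusted p in brackets. *Jph2*, which ties the transverse tubule to the sarcoplasmic reticulum, was the most abundant partner, at 177.9 ± 17.7 CPM per kb in WT and 180.7 ± 22.4 in A178D.

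Downstream of the L-type channel, 9 of 10 genes of calcium release and extrusion were tested and 0 were called by edgeR, 1 by DESeq2 (*Casq2*) and 0 by limma-voom. Without adjustment 5 of the 9 had a p under 0.05 in edgeR, 2 of them higher and 3 lower, against 16.7% of all tested genes. The median of the 9 was -0.12. The most abundant per length was *Atp2a2*, the calcium pump of the sarcoplasmic reticulum, in WT, at 3246 ± 165.6 CPM per kb against 3140 ± 267.9 for its inhibitor *Pln*. In A178D it was *Pln*, at 3074 ± 218.5 against 2903 ± 110.1.

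Among 22 transcription factors of channel genes and conduction tissue, 20 were tested, 2 were called higher and 1 lower by edgeR. Of all tested genes 1.04% were called higher and 1.31% lower, and the median of the factors was -0.09. DESeq2 called 1 more lower, *Hey2* (adjusted p = 0.0126). *Irx5* and *Irx3* are homeobox genes that pattern ventricular repolarisation and conduction. *Irx5* had 9.46, 7.98 and 8.02 CPM in WT replicates 1, 3 and 4 and 19.2, 19.0, 18.8 and 23.7 CPM in A178D replicates 1 to 4. It rose with a log2 fold change of 1.247 (standard error 0.12) and an adjusted p of 0.000283 in edgeR. *Irx3* rose from 36.6 ± 1.75 to 60.7 ± 6.78 CPM (log2 fold change 0.73, standard error 0.09, adjusted p = 0.00183 in edgeR). Both were called in all 7 fits without 1 library. *Gata6*, a zinc finger factor of heart development, fell from 66.9 ± 3.10 to 50.6 ± 3.95 CPM (log2 fold change -0.40, standard error 0.08, adjusted p = 0.0177 in edgeR). *Gata6* lost its call in 3 of these fits, with adjusted p-values of 0.0823 when WT replicate 3 was left out, 0.0974 for WT replicate 4 and 0.0595 for A178D replicate 1. *Gata4* was the most abundant factor, at 39.9 ± 4.37 CPM per kb in WT and 44.6 ± 2.12 in A178D.

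Genes of the study were set beside the channels. *Acta1* was called higher by edgeR (log2 fold change 2.64, adjusted p = 0.000651), as was *Nppa* (1.31, adjusted p = 0.0146). They were the 2 called of 8 genes of the fetal programme, against 1.04% of all tested genes called higher. The programme had a median of 0.81 (0.52 without WT replicate 4 and 1.29 without WT replicate 1). *Ankrd1* was its most abundant gene, at 365.2 ± 110.2 CPM per kb in WT and 579.9 ± 109.4 in A178D. *Nppa* was not called by edgeR without WT replicate 3 (adjusted p = 0.0860), WT replicate 4 (0.0598) or A178D replicate 1 (0.0555). *Ttn* itself had a log2 fold change of -0.27 (standard error 0.12), or -0.15 without A178D replicate 4, and was not called (adjusted p = 0.287 in edgeR).

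For *Cacna1c*, the channel gene with the lowest p, the genes most like it in pattern were sought among 12210 others averaging 50 counts or more and present in every library. The measure was the root mean square difference of log2 CPM, centred on the mean of the 7 libraries. Among the 3 closest were *Mtx3* at 0.040, which encodes a protein of the mitochondrial outer membrane, and *Crebbp* at 0.043, which encodes a histone acetyltransferase. All A178D hearts were below all WT hearts for both, and A178D replicate 4 was the lowest, as for *Cacna1c*. *Mtx3* had a log2 fold change of -0.22 (adjusted p = 0.282) and *Crebbp* of -0.25 (adjusted p = 0.1698 in edgeR), and with length and GC offsets both were at -0.14. Without WT replicate 1 *Mtx3* was also at -0.14. Its unadjusted p in edgeR was under 0.05 in 3 of 7 fits with 1 library left out. Of the other channel genes, *Cacnb2* was the closest to *Cacna1c*, with a difference of 0.102 and rank 463, and *Scn4b* the farthest, with 0.529.

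The promoters of the channel genes were read for letters bound by the factor families in the list of transcription factors, a search chosen after their values were seen. RefSeq windows on GRCm38.p6, from 250 bases before to 50 after a start, existed for 6 of the 8 genes and gave 9 windows, 3 of them for *Cacna1c* and 2 for *Cacnb2*. Counts per gene do not tell which start was used. The GATA letters AGATAA were in 0 of the 9 windows, on either strand, and in 11.2% of all 32851 windows. The palindrome ACATGT of Iroquois factors was in 0 of 9 and in 5.28% of all. The T-box letters AGGTGT were in 2 of 9 and in 13.7% of all. The windows with a match are shown because they are the ones that hold one, with the match in capitals, and beside them the first window of *Cacnb2*, the other gene whose hearts did not overlap, which holds none of the 3. The *Cacna1c* window is chr6:119108446-119108745 on the minus strand, with 81.3% G and C and 57 CG pairs. The *Hcn4* window is chr9:58822699-58822998 on the plus strand, with the letters read on its other strand, and the *Cacnb2* window is chr2:14604056-14604355 on the plus strand. *Cacna1g* and *Cacna1h* were not in the table. A match is a description of the letters, not a site. All are written 5′ to 3′ along the gene's strand.
Cacna1c, second start: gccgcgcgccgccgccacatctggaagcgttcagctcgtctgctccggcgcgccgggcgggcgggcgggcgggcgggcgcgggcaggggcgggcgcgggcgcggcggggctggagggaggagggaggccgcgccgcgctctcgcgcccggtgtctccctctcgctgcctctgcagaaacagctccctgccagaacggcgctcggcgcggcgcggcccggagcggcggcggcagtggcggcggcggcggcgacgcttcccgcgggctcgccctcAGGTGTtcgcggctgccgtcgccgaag
Hcn4: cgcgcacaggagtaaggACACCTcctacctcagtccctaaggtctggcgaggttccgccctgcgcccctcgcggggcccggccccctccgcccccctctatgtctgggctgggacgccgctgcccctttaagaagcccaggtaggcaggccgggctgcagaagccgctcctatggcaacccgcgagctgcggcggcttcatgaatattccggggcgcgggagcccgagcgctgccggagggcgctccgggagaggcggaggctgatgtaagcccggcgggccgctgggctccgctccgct
Cacnb2, first start: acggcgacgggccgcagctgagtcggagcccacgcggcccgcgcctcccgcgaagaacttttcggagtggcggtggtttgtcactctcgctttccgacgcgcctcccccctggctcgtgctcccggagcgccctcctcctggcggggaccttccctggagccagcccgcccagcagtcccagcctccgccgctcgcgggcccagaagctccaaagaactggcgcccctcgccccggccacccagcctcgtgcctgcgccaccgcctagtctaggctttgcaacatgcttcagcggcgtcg

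Of the remaining marker lists, ventricular myocytes had 1 of 11 genes called, *Mybpc3*, which was higher in A178D (log2 fold change 0.30, adjusted p = 0.0230 in edgeR) but not called in 4 of 7 fits with 1 library left out, at adjusted p-values from 0.0510 to 0.1197, nor with the replicate block (0.0574). Their median was -0.03 and *Actc1* the most abundant, at 8554 ± 76.4 CPM per kb in WT and 9347 ± 465.8 in A178D. Of 10 atrial markers 7 were tested and 1 was called higher by edgeR, *Nppa*, while DESeq2 also called *Kcnj3* and *Nr2f2*, both lower (adjusted p = 0.00507 and 0.0454). *Nppa* was also the most abundant, at 210.2 ± 80.8 CPM per kb in WT and 521.0 ± 147.7 in A178D, and the median of the list was -0.31. Of 15 markers of nerve and glia 9 were tested and 1 was called by edgeR, *Uchl1*, which was higher (log2 fold change 0.66, adjusted p = 0.0170) and the most abundant, at 5.28 ± 0.89 CPM per kb in WT and 8.38 ± 0.81 in A178D. Without WT replicate 4 *Uchl1* was not called by edgeR (0.61, adjusted p = 0.09315). The median of the list was 0.21, and *Chat* was at 0. Endothelium had 0 of 7 called by edgeR and by DESeq2, with 0 at an unadjusted p under 0.05, a median of 0.08 and *Cdh5* as the most abundant, at 54.0 ± 4.33 CPM per kb in WT and 50.1 ± 3.28 in A178D. Fibroblasts had 0 of 6 called by edgeR and 1 by DESeq2, with 3 at an unadjusted p under 0.05, a median of 0.12 and *Dcn* as the most abundant, at 99.2 ± 9.19 and 99.4 ± 7.55. Macrophages had 0 of 7 called by edgeR and 1 by DESeq2, with 3 at an unadjusted p under 0.05, a median of 0.09 and *Csf1r* as the most abundant, at 10.5 ± 1.21 and 11.2 ± 0.70. Over all tested genes edgeR called 2.35% and gave 16.7% an unadjusted p under 0.05, and DESeq2 called 5.08% of those it tested.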

How the data were processed

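The analysis started from the table of raw gene counts that the authors deposited for the 7 libraries. According to the submitters' processing notes, reads were demultiplexed with bcl2fastq 2.18.0.12, aligned to GRCm38 with HISAT2 2.1.0 and sorted with SAMtools 1.6, and DESeq2 1.26.0 was used. The counting program, its strand setting and the annotation are not given in the sources used here. A second deposited table, counts divided by size factors, was not used.

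Of 21257 entries, 442 fell into 219 sets whose counts were the same throughout, and keeping 1 entry per set removed 223. Sets were sought among entries with 30 or more counts over all libraries. Below that, 107 exact repeats of a gene ID were removed, which left 20927 genes. Libraries held 33080675 to 54245530 counts. A gene was tested if 3 or more libraries held 10 or more of its counts, which left 13894. Libraries were scaled by TMM, and A178D was compared with WT by edgeR's quasi-likelihood F test, with calls at a Benjamini-Hochberg adjusted p under 0.05. Software was R 4.3.3 with edgeR 4.0.16, DESeq2 1.42.0, limma 3.58.1 and mgcv 1.9.3. The alternatives tried were DESeq2, limma-voom, other scalings and filters, offsets for length and GC content, a replicate block, a stricter threshold, the table with identical entries kept, and fits without each library. Counts halved and rounded up, since low counts were mostly even, were an alternative chosen after seeing the data. The functions that fit the counts were also run on simulated counts with known differences. These were built from the mean counts and library sizes of these data, with a spread and length trends close to those found here.

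The named genes are the 8 channel genes, other tested subunits of the 3 channel families (with values where called or at an unadjusted p under 0.05, otherwise by range), the called genes of every other list (at most 10 by p) with its most abundant gene, *Acta1*, *Nppa* and *Ttn* as genes of the study, and 3 genes closest in pattern to the channel gene with the lowest p. Lists are described by calls and median. Shares over all tested genes stand in the same paragraphs, and their median stands beside that of the 8 channel genes. The lists were the sodium, calcium and HCN channel subunits, the partners of each, calcium release and extrusion, transcription factors, the fetal gene programme, and markers of ventricular and atrial myocytes, nodal and conduction cells, smooth muscle and pericytes, skeletal muscle, nerve and glia, endothelium, fibroblasts and macrophages. The channel genes and the lists were chosen with earlier results of these data known. Exon lengths came from the GENCODE M21 annotation of GRCm38 and promoter starts from RefSeq.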

Additional observations from a re-analysis of the deposited data

Results flagged for a closer look

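4 of the values examined stood apart from the others of their group. In Dixon's test on 4 values, the gap to the nearest heart took a larger share of the range than the limit of that test. It was applied to A178D for 58 values, 52 genes and 6 shares, and chance alone flags about 1 in 20 groups. Other genes of the lists were not part of these. Over all 169 tested genes of the lists, 12 were past the limit, 7 of them in A178D replicate 4, 3 in A178D replicate 1 and 1 each in A178D replicates 2 and 3.

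*Irx5* in A178D replicate 4 was 23.7 CPM, with 19.2, 19.0 and 18.8 CPM in A178D replicates 1 to 3, and the share of the gap was 0.914. Without this library its log2 fold change was 1.16, and the gene was called by edgeR with or without it. *Dcn* in A178D replicate 1 was 646.3 CPM, with 554.9 to 562.3 CPM in the others and a share of 0.919. *Scn2a* in A178D replicate 2 was 0.70 CPM, with 0.31 to 0.35 CPM in the others (0.892), and *Cacna2d3* in A178D replicate 3 was 0.98 CPM, with 0.45 to 0.53 CPM in the others (0.853). These 3 genes were not called with all libraries. *Scn2a* and *Cacna2d3* had at most 48 counts in a library. All libraries were kept, and the cause was not tested.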

How the results depend on the processing

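Of 136 values of the 8 channel genes under other settings, 3 gained a call at an adjusted p under 0.05 and 4 changed sign. The other 129 kept their sign and were not called, though their sizes differed. DESeq2 called 666 genes, 289 higher and 377 lower, among them 1 channel gene, *Cacna1c* (log2 fold change -0.29). With length and GC offsets, genes called were 513, genes called higher 231 and genes called lower 282, and an adjusted p under 0.01 gave 64 (24 higher, 40 lower). Halved counts, a setting chosen after seeing the data, gave 335. Of 408 values of 24 other named genes, 49 lost the call at an adjusted p under 0.05 and 0 changed sign. A lost call did not always go with a smaller log2 fold change.

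With replicate number as a block, 271 genes were called and *Cacna1g* was -0.048, *Cacna1h* 0.32 (adjusted p = 0.298 in edgeR) and *Hcn4* 0.04. Libraries of the same number were no more alike than others (r = 0.02, -0.09 and -0.09).

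With 1 library left out, 53 to 453 genes were called, 22 to 215 higher and 31 to 238 lower, the fewest without WT replicate 3 and the most without WT replicate 1, and 0 to 1 channel genes. The log2 fold changes ranged from 0.03 to 0.36 for *Scn4a*, 0.32 to 0.91 for *Scn4b*, -0.33 to -0.22 for *Cacna1c*, -0.078 to 0.14 for *Cacna1g*, 0.32 to 0.64 for *Cacna1h*, -0.27 to -0.15 for *Cacnb2*, -0.021 to 0.30 for *Hcn2* and 0.02 to 0.15 for *Hcn4*. *Scn4b* was called without WT replicate 1 and *Cacna1h* without A178D replicate 4 (0.62). Of the list medians given, those of the calcium channel subunits (-0.096 to 0.053), their partners (-0.064 to 0.003), the HCN partners (-0.028 to 0.22), ventricular markers (-0.088 to 0.035) and endothelium (-0.035 to 0.10) changed sign. Without doing so, the medians ranged from -0.295 to -0.092 for sodium channel subunits, 0.018 to 0.052 for their partners, -0.15 to -0.059 for calcium release and extrusion, -0.12 to -0.06 for transcription factors, -0.199 to -0.019 for nodal markers, 0.11 to 0.32 for nerve and glia, 0.06 to 0.17 for fibroblasts and 0.033 to 0.19 for macrophages. With both block and offsets, *Ahnak*, *Mylk* and *Cnn1* were not called. The cause was not tested.

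The groups held 3 and 4 hearts, and their permutation test cannot go below 0.0286. The labels give no age, sex or batch, so the labels do not let these be told apart from genotype. Sex was not read from the counts of sex-linked genes. RNA levels do not give channel protein or current, which were not measured here.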
